A study of Mus musculus with 14 samples.

Results

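The genes examined here are Runx1, Runx2, Runx3, Cbfb, Ets1, Ets2, Elf1, Fli1 and Gabpa, which encode the Runx transcription factors, their shared partner Cbfb and 5 members of the Ets family. Their members in the data are windows of accessible chromatin. A window was counted for a gene when the nearest protein-coding start site to its centre was that gene's, within 100 kb in RefSeq coordinates of GRCm38. The rule used position only and gave 371 of 240778 windows, of which 140 belonged to Runx and Cbfb genes and 231 to Ets genes. By gene there were 70 windows for Runx1, 2 for Runx2, 59 for Runx3, 9 for Cbfb, 75 for Ets1, 63 for Ets2, 3 for Elf1, 78 for Fli1 and 12 for Gabpa. Windows often overlap, so that the 371 windows form 243 joined regions, and windows of 1 region share reads.

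Open chromatin was profiled with ATAC-seq, an assay that tags DNA with a transposase wherever it is reachable, on sorted regulatory T (Treg) cells from the spleen and lymph nodes of mice. All mice carried the Foxp3-AID allele, in which the endogenous Foxp3 protein bears a degron together with a ZsGreen reporter and Cre recombinase made from the same locus, and all received the ligand 5-ph-IAA. In Foxp3-AID ROSA26-TIR1(F74G) mice, here R26TIR1(F74G), Cre turns on the plant receptor through which 5-ph-IAA drives degradation of the fusion protein, whereas Foxp3-AID ROSA26-WT mice, here R26WT, lack the receptor and served as controls. There were 4 R26WT and 4 R26TIR1(F74G) libraries on day 3 and 3 of each on day 7, 14 in all, and the comparisons ask what loss of Foxp3 protein does to the open chromatin of mature Treg cells. Since Cre is made from the Foxp3 locus, the receptor is present only in cells that have transcribed Foxp3. The study sorted ZsGreen+ cells from both genotypes and also asked for the mCherry that reports the receptor in R26TIR1(F74G) mice, so the gates differed. The labels give neither age nor sex, nor whether mice were hemizygous or heterozygous for the allele, and they name Treg cells without an activation state. The study describes bulk accessibility only for day 7, in resting and activated Treg cells of females heterozygous for the allele (Foxp3-AID/WT), so whether that holds for these libraries, and for those of day 3, was not settled.

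Runx1, Runx2 and Runx3 share a DNA-binding Runt domain and bind DNA tightly only as heterodimers with Cbfb, which itself does not contact DNA. Runx1 is needed for early haematopoiesis and thymocyte development, Runx3 is best known for silencing Cd4 in the CD8 lineage, and Runx2 is the master regulator of bone formation. In Treg cells Foxp3 binds Runx1, and Runx-Cbfb complexes at an intronic element of Foxp3 help to keep the gene expressed. Runx genes are transcribed from a distal promoter (P1) and a proximal one (P2), which give proteins with different amino termini. Ets factors bind a GGAA core through a winged helix-turn-helix domain and often occupy T cell enhancers beside Runx factors. Ets1 and Ets2 are close relatives, Elf1 and Fli1 are abundant in lymphoid cells, and Gabpa pairs with Gabpb1 to drive many housekeeping promoters.

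The sequence around the first start site is shown for the Runx genes. At Runx3 the window of the leading result overlaps it, and the promoters at the 3 first start sites share a stretch. Of 21044 RefSeq promoters (250 bases before to 50 after each start, GRCm38.p6), those of Runx1, Runx2 and Runx3, and no other, held the same run of 18 bases, which is 0.0143%. The run was chosen as the longest that these 3 share, so that they hold it by definition. The count adds only that no other promoter held it. The run contains the Runx site ACCACA, which reads TGTGGT on the other strand, in 2 copies, in capitals here with 6 bases on either side of the run. The 30 bases are read 5′ to 3′ on the strand of each gene, from chr4:135120503-135120532 (plus strand) for Runx3, chr16:92826025-92826054 (minus strand) for Runx1 and chr17:44814583-44814612 (minus strand) for Runx2.
Runx3: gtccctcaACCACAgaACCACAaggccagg
Runx1: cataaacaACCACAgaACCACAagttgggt
Runx2: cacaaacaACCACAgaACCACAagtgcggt
The Runx2 promoter starts 170 bp inside the gene start used for assigning windows, whereas those of Runx1 and Runx3 start at it. Counted from the start site of each promoter, the run began at −136 in Runx3, at 26 in Runx1 and at 21 in Runx2. TGTGGT or ACCACA was present in 14.8% of all promoters of the same length and at least 2 times in 1.45%. The promoters at the second RefSeq start sites of Runx1 and Runx3 held none. Over the 300 bases these first promoters had 8 CG pairs in Runx3, 2 in Runx1 and 2 in Runx2, whereas the second promoters had 45 in Runx3 and 35 in Runx1 (median over all promoters 13).

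The window with the smallest p of all 371 over both days ends within the shared run, after 5 of its 18 bases, and holds neither Runx site whole. The 250 bases before the first Runx3 start site (chr4:135120395-135120644, plus strand) are given whole, since this window overlaps them, with the Runx sites in capitals.
Runx3 before the start site: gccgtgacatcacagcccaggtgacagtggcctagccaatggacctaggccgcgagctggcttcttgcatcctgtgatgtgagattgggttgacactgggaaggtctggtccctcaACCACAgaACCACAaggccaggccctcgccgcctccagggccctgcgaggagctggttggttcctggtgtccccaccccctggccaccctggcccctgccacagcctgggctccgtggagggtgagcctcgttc
The start window of Gabpa was the most accessible of all members, and its RefSeq promoter, which starts 233 bp inside the gene start used for windows, held the Ets site CTTCCGG, which reads CCGGAAG on the other strand. This heptamer was present in 11.7% of all promoters and in no other member promoter listed.
A motif match describes letters and is not evidence of binding. The promoters of Ets1 and Fli1 were not among those used.

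Libraries held 5653289 to 20184487 counts in windows, with the lowest totals in day 3 R26TIR1(F74G) replicate 1 and day 7 R26WT replicate 3. No libraries were identical, and nothing in the labels says more of replicates than their number and a name. Of the markers of Treg cells, 5 of 7 had a window within 1 kb of their start site, with a summed level of 49.5 to 66.2 CPM, that is, window counts scaled to the TMM-normalised size of each library. Foxp3 itself was 1 of the 2 without one. The summed level of B cell markers (3 of 10 with such a window) was 7.74 to 11.4 CPM in R26WT and 10.7 to 14.9 CPM in R26TIR1(F74G) libraries on day 3, and 9.56 to 14.8 and 7.38 to 13.6 CPM on day 7. Of the 3 windows, that of Cr2 had 6.55 CPM, that of Ebf1 3.5 and that of Cd79b 1.33. Ms4a1 and Pax5 were among the 7 B cell markers without a window there. With counts summed by gene, 8 B cell markers could be tested on day 3. Their log2 fold changes (R26TIR1(F74G) over R26WT) ran from −0.40 (Cd22) to 0.49 (Cr2), with a median of 0.05. The part of B cell DNA in the day 3 values was not tested. The methods describe enrichment of CD4+ T cells and then a sort for CD4+TCRβ+ZsGreen+ cells. The levels ranged from 6.6 to 10.2 CPM for myeloid markers (3 of 9), from 11.3 to 15.5 CPM for CD8 T cell markers (2 of 2) and from 4.26 to 5.97 CPM for NK cell markers (1 of 3), with overlapping ranges in all 4 groups. In bulk samples a smaller share of cells with an open site and a less open site in each cell cannot be told apart.

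Accessible windows were many around Runx1, Runx3, Ets1, Ets2 and Fli1 and few around the other genes. The median gene with any window had 8. Only 0.45% of the 15855 such genes had as many as Fli1, 0.55% as many as Ets1, 0.76% as many as Runx1, 1.24% as many as Ets2 and 1.61% as many as Runx3. Member windows lay farther from start sites than windows at large. Within 1 kb there were 33, or 8.89% against 23.4% of all windows within 100 kb, and 245 lay 20 to 100 kb away, or 66.0% against 39.8%. The median level was 2.23 CPM in member windows and 1.8 CPM in all windows, and 33 member windows reached 10 CPM. At the limit of the rule, the farthest window kept was an Ets2 window 96927 bp from the start site with 1.2 CPM (log2 fold change over both days −0.21), and the nearest window left out was a Runx1 window at 101368 bp with 1.33 CPM (−0.13).

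**Figure D1:**
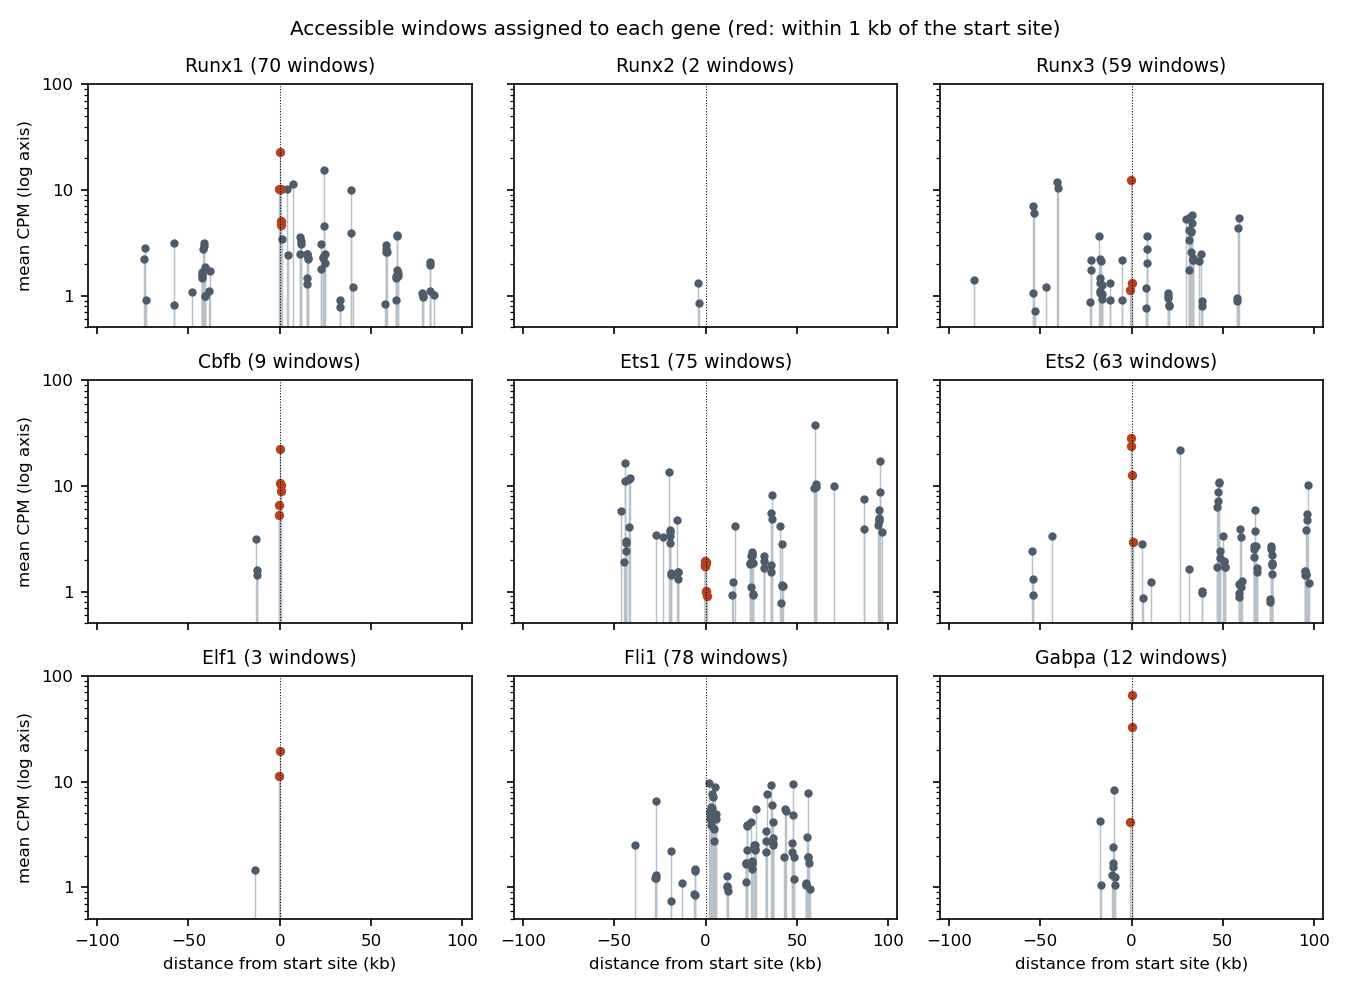
Mean CPM over 14 libraries (log axis) of every window assigned to each of the 9 genes, against its distance from the start site in kb, with windows within 1 kb in red. Gabpa has the highest window at 65.7 CPM, Ets1 has its highest at 59723 bp rather than at 0, and Fli1 and Runx2 have no red point.

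A start window is the strongest window assigned to a gene within 1 kb of its first start site. By its level the order of genes was Gabpa, Ets2, Runx1, Cbfb, Elf1, Runx3 and Ets1. A window 332 bp into Elf1 had 29.7 CPM, above the start window of Ets2, but lay nearer to the Wbp4 start site. The level and rank of Elf1 given here leave that window out. All windows are 201 bp wide, so that their levels in CPM can be set side by side. Gabpa had 65.7 CPM (percentile 98.7 of 11423 genes with such a window), Ets2 28.7 (73.3), Runx1 22.9 (63.1), Cbfb 22.4 (62.0), Elf1 19.7 (56.7), Runx3 12.4 (40.3) and Ets1 1.95 (8.5). Across the 14 libraries Gabpa ranged from 52.5 to 82.2 CPM and lay above all other start windows in every library, and Runx3 ranged from 8.2 to 16.2 CPM and lay above Ets1 in every library. The ranges of the neighbours Ets2 (19.5 to 36.2 CPM), Runx1 (18.3 to 27.7 CPM), Cbfb (19.8 to 29.7 CPM) and Elf1 (16.1 to 23.0 CPM) overlapped. Within libraries Ets2 was above Elf1 in 14 of 14, above Runx1 in 13 and above Cbfb in 12, and Cbfb was above Elf1 in 13. Runx1 was above Elf1 in 12 libraries and above Cbfb in 10, so the order of Runx1 and Cbfb is the least settled.

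Fli1 and Runx2 had no window within 1 kb of the first start site. For Fli1 the nearest was its strongest, 2062 bp into the gene. Runx2 had only 2 weak windows upstream, with 1.32 and 0.857 CPM, and 102 further windows inside the gene had the start site of Supt3 as their nearest. The strongest of these, 37702 bp into Runx2, had 32.9 CPM and lay 23 bp from the Supt3 start site. Another, 78438 bp into Runx2 and 40759 bp from the Supt3 start site, had a mean count of 183. Distances within the gene were also taken from the GENCODE annotation of another build (GRCm39). There the canonical Runx2 transcript starts 78149 bp after the first start, near this window, and 1 of 10 coding transcripts starts within 500 bp of that point. The 2 upstream windows are therefore what the rule leaves and not all that is open inside the gene. Likewise 63 windows inside Elf1 went to Wbp4 or Sugt1, and 22 inside Runx1, 6 inside Fli1, 5 inside Ets1, 5 inside Gabpa and 4 inside Cbfb went to other genes or lay beyond 100 kb. Of these 207 windows, 0 passed the test used here in any comparison.

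Summed over 1 window for each region, Ets1 had 385 CPM, more than 99.6% of genes, followed by Ets2 with 264, Fli1 with 252, Runx1 with 246, Runx3 with 175, Gabpa with 163, Cbfb with 75.9, Elf1 with 44.1 and Runx2 with 2.96 CPM. These sums depend on how many windows the rule gives a gene. The genes divided by where the counts assigned to them lay. Elf1 (95.5%), Cbfb (89.0%) and Gabpa (85.7%) had most of the sum in windows within 1 kb of the first start site. The share was 35.2% for Ets2, 26.8% for Runx1, 11.5% for Runx3, 1.05% for Ets1 and 0.0% for Fli1. For Elf1 the rule sets this split, since 63 windows inside the gene went to other genes. Of these, the window 34423 bp into Elf1 had 15.2 CPM.

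At Runx3, which codes for a Runx factor of cytotoxic and innate-like lymphocytes, the window across the distal promoter was less accessible on average in R26TIR1(F74G) than in R26WT mice. It lies at chr4:135120312-135120513, outside the gene and centred 233 bp before the first start site. It covers 5 of the 18 bases of the shared run and neither Runx site whole. On day 3 it had 12.7, 14.9, 14.8 and 15.5 CPM in R26WT libraries and 11.1, 9.6, 10.4 and 8.2 CPM in R26TIR1(F74G) libraries. Every R26TIR1(F74G) library was below every R26WT library. On day 7 it had 14.2, 16.2 and 12.0 CPM in R26WT and 11.0, 12.1 and 10.7 CPM in R26TIR1(F74G) libraries, where the groups overlapped by 1 library of each genotype. The means were 14.5 ± 1.22 and 9.83 ± 1.25 CPM on day 3 (SD, n = 4) and 14.1 ± 2.09 and 11.3 ± 0.735 CPM on day 7 (SD, n = 3).

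With edgeR's quasi-likelihood test and Benjamini-Hochberg adjustment over all windows, the log2 fold change of this Runx3 window was −0.58 on day 3 (standard error, SE, 0.14, adjusted p = 0.321), −0.35 on day 7 (SE 0.14, adjusted p = 0.78) and −0.48 over both days (SE 0.10, 95% interval −0.67 to −0.28, unadjusted p = 1.28e-05, adjusted p = 0.0834). It therefore did not pass the threshold of 0.05 in this fit. In 22 alternative fits over both days the log2 fold change was negative in each, from −0.54 to −0.43, with adjusted p from 0.000996 to 0.31, and 6 passed the threshold. These were DESeq2 (adjusted p = 0.000996), scaling by total counts (0.0468), a mean count of at least 50 (0.0202), leaving out day 3 R26TIR1(F74G) replicate 1 (0.0415), leaving out day 7 R26WT replicate 3 (0.025) and leaving out both, which are the libraries of lowest total (0.00612, chosen after the data were seen).

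Start windows as a class also had negative medians. Over the start windows of all genes the median log2 fold change was −0.11 for day 3, −0.02 for day 7 and −0.07 for both days in 1 fit. Among these windows Runx3 stood at percentile 0.351 (11409 windows, day 3), 4.27 (11415, day 7) and 0.35 (11423, both days). The share of all counts that lay in start windows was 44.6% to 46.6% in R26WT and 42.4% to 45.9% in R26TIR1(F74G) libraries on day 3, and 42.4% to 45.8% and 44.9% to 46.0% on day 7. The part of this share in the Runx3 difference was not tested.

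The windows at the second Runx3 start site, 31900 bp farther on in RefSeq, had another pattern. The strongest (chr4:135152372-135152573, inside the gene) had 8.31, 5.62, 5.81 and 5.78 CPM in R26WT and 3.78, 5.15, 4.47 and 5.23 CPM in R26TIR1(F74G) libraries on day 3, with no overlap. The day 7 libraries had 4.46, 5.64 and 3.75 CPM in R26WT and 5.13, 7.69 and 7.28 CPM in R26TIR1(F74G) libraries, so that R26TIR1(F74G) was on average the lower genotype on day 3 and the higher on day 7. The log2 fold change was −0.41 on day 3 (SE 0.17, adjusted p = 0.603) and 0.49 on day 7 (SE 0.18, adjusted p = 0.769). The test of the difference between days gave 0.89 (SE 0.26, unadjusted p = 0.00106, adjusted p = 0.596), the smallest p of any member window in that comparison but not past the threshold. At the first start site that difference was 0.23 (SE 0.20, adjusted p = 0.893). A window that overlaps this one, 31660 bp from the start site, had like values of −0.60 on day 3 and 0.89 between days, but shares reads with it.

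**Figure D2:**
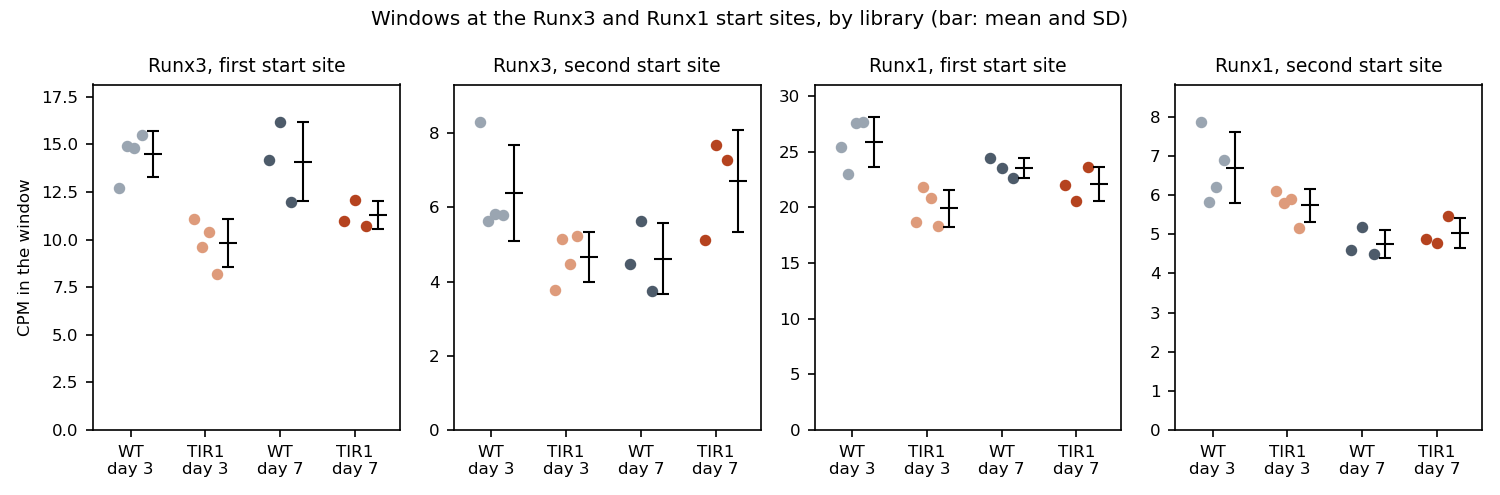
CPM in each library of the windows at the first and second start sites of Runx3 and Runx1, with day 3 and day 7 R26WT and R26TIR1(F74G) libraries side by side and the mean and SD beside the points. At the first Runx3 start site the day 3 groups are apart (12.7 to 15.5 against 8.2 to 11.1 CPM), and at the second the genotypes change order between the days.

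Runx1, the Runx factor that is bound by Foxp3, had its strongest window across its first start site (chr16:92826039-92826240, centred 65 bp before it, with 10 of the 18 bases of the shared run). On day 3 it had 25.4, 23.0, 27.6 and 27.7 CPM in R26WT libraries and 18.7, 21.8, 20.8 and 18.3 CPM in R26TIR1(F74G) libraries. The groups did not overlap on day 3. Day 7 values were 24.4, 23.5 and 22.6 CPM in R26WT and 22.0, 20.6 and 23.6 CPM in R26TIR1(F74G) libraries, where they did. The log2 fold change was −0.37 on day 3 (SE 0.12, adjusted p = 0.5), −0.09 on day 7 (SE 0.12, adjusted p = 0.954) and −0.25 over both days (SE 0.09, unadjusted p = 0.00631, adjusted p = 0.57). These values stand at percentiles 3.37, 29.0 and 5.59 of all start windows, and none of 22 alternative fits over both days (−0.28 to −0.21, adjusted p from 0.116 to 0.802) passed the threshold.

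At the second start site of Runx1, 128745 bp farther on and so outside the rule, the strongest window (chr16:92697353-92697554) had 7.88, 5.82, 6.21 and 6.9 CPM in R26WT and 6.11, 5.79, 5.89 and 5.15 CPM in R26TIR1(F74G) libraries on day 3. On day 7 it had 4.59, 5.18 and 4.5 CPM in R26WT and 4.87, 4.77 and 5.46 CPM in R26TIR1(F74G) libraries. On day 7, 4 of 6 libraries lay below every library of day 3, with a log2 fold change between days of −0.32 (SE 0.12, adjusted p = 0.865), and the genotypes overlapped on both days. The strongest Runx1 window away from the start, 24326 bp into the gene (15.4 CPM), had a log2 fold change over both days of −0.14 (SE 0.10, adjusted p = 0.863).

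Other Runx windows gave scattered values. The smallest p of any member window on day 7 was at a weak window 38847 bp before Runx1 with a mean count of 15.3, which had 1.1, 2.5 and 2.1 CPM in R26WT and 0.909, 0.775 and 0.304 CPM in R26TIR1(F74G) libraries. Its groups did not overlap on day 7, at a log2 fold change of −1.51 (SE 0.39, adjusted p = 0.422), but they did on day 3, when it was 0.32. A cluster of 5 low windows 11806 to 16250 bp before Runx3, in 3 joined regions and with mean counts of 12.4 to 18.1, was picked out after its values were seen and had log2 fold changes on day 7 of −1.16 to −0.83 (SE 0.36 to 0.44, adjusted p from 0.741 to 0.834) and on day 3 of −0.39 to −0.02 (adjusted p from 0.83 to 0.994). The strongest Runx3 window away from its start sites, 40644 bp upstream (11.9 CPM), had −0.34 on day 3 (SE 0.15, adjusted p = 0.602) and 0.12 on day 7 (SE 0.14, adjusted p = 0.947). The 2 Runx2 windows had 0.04 and 0.15 over both days with SEs of 0.24 and 0.30, too wide to place them on either side of 0.

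Cbfb, the partner that stabilises all Runx factors on DNA, differed little between genotypes. Its start window (chr8:105170451-105170652) had 20.3, 21.4, 22.1 and 28.0 CPM in R26WT and 29.7, 21.9, 19.8 and 22.4 CPM in R26TIR1(F74G) libraries on day 3. The day 7 libraries had 22.9, 21.7 and 20.2 CPM in R26WT and 21.6, 20.1 and 21.5 CPM in R26TIR1(F74G) libraries. The groups overlapped on both days, and the log2 fold change over both days was −0.02 (SE 0.09, 95% interval −0.20 to 0.16, adjusted p = 0.988). Its sign turned with total-count scaling and with a higher count minimum, where it was 0.01. The interval leaves out differences as large as the one at the first Runx3 start site.

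**Figure D3:**
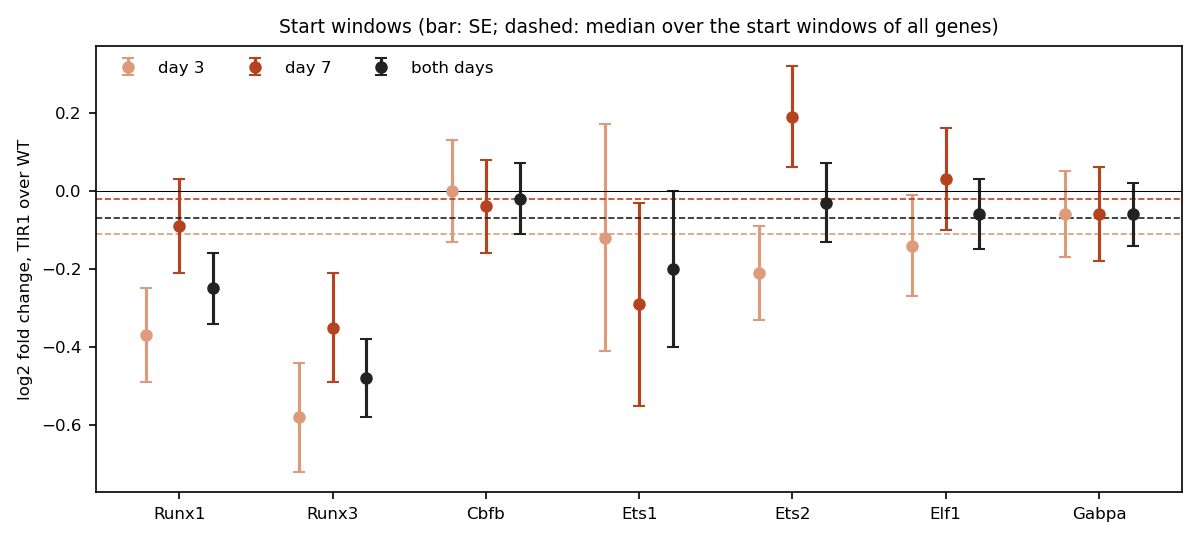
Log2 fold change (R26TIR1(F74G) over R26WT) of the start window of 7 genes for each day and for the 2 days in 1 fit, with bars for the SE and dashed lines at the median over the start windows of all genes (−0.11, −0.02 and −0.07). Runx3 lies lowest on each, at −0.58, −0.35 and −0.48, and Cbfb, Elf1 and Gabpa lie near the dashed lines.

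Ets1, a factor abundant in resting T cells, was open far from its first RefSeq start site. The window there had only 1.95 CPM. Its strongest window, at chr9:32695864-32696065 and 59723 bp into the gene, had 38.0 CPM, the most of any member window outside 1 kb. In the GENCODE annotation of another build (GRCm39), in which only distances within the gene were used, the canonical Ets1 transcript starts 59763 bp after the first start and 7 of 8 coding transcripts start within 500 bp of it. The window had 33.5, 36.6, 40.4 and 47.7 CPM in R26WT and 35.6, 40.5, 30.9 and 30.3 CPM in R26TIR1(F74G) libraries on day 3. Day 7 values were 39.0, 40.6 and 36.1 CPM in R26WT and 40.3, 35.2 and 45.6 CPM in R26TIR1(F74G) libraries. The groups overlapped on both days, with a log2 fold change over both days of −0.09 (SE 0.09, 95% interval −0.27 to 0.08, adjusted p = 0.911).

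Another Ets1 window, 60604 bp into the gene (chr9:32696745-32696946), had the smallest p over both days of the Ets genes. It had 7.1, 7.41, 8.06 and 8.79 CPM in R26WT and 9.17, 8.53, 9.61 and 12.1 CPM in R26TIR1(F74G) libraries on day 3. On day 7 it had 9.5, 9.94 and 10.2 CPM in R26WT and 12.6, 10.4 and 13.8 CPM in R26TIR1(F74G) libraries. R26TIR1(F74G) libraries were higher without overlap on day 7 and overlapped R26WT by 1 library of each genotype on day 3. The log2 fold change over both days was 0.32 (SE 0.11, unadjusted p = 0.00347, adjusted p = 0.515), and day 7 was higher than day 3 by the same amount (0.32, SE 0.11, adjusted p = 0.786).

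Ets2, a close relative of Ets1, had a strong start window (chr16:95702265-95702466) with 28.5, 27.5, 30.0 and 36.2 CPM in R26WT and 22.5, 32.8, 25.1 and 24.3 CPM in R26TIR1(F74G) libraries on day 3. The day 7 libraries had 29.7, 31.2 and 19.5 CPM in R26WT and 30.7, 29.8 and 33.5 CPM in R26TIR1(F74G) libraries. The groups overlapped on both days. The log2 fold change was −0.21 on day 3 and 0.19 on day 7, and the test of the difference between days gave 0.41 (SE 0.19, unadjusted p = 0.0355, adjusted p = 0.781), against a median of 0.10 over all start windows. Without the 2 least deeply sequenced libraries it was 0.19 (unadjusted p = 0.268, adjusted p = 0.957). Of the 63 Ets2 windows, 7 had an unadjusted p under 0.05 in that test (11.1%, against 6.32% of all windows), all with a positive difference, 3 of them within 1 kb of the start site.

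Downstream of Ets2, the window at 26584 bp (21.8 CPM) had a log2 fold change over both days of −0.22 (SE 0.10, adjusted p = 0.698). The window at 47438 bp (chr16:95749745-95749946) had 8.27, 6.22 and 9.0 CPM in R26WT and 11.1, 10.2 and 10.9 CPM in R26TIR1(F74G) libraries on day 7. These groups did not overlap, at a log2 fold change of 0.49 (SE 0.15, unadjusted p = 0.00273, adjusted p = 0.675). The window was named for the smallest p of the Ets2 windows over both days, which include these libraries. On day 3 the same window had 0.12 (SE 0.15, adjusted p = 0.906), with overlap.

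Fli1, a factor that restrains effector differentiation of CD8 T cells, had no window within 1 kb of its first RefSeq start site. The nearest lay 2062 bp into the gene. In the GENCODE annotation of GRCm39 the canonical Fli1 transcript starts 1266 bp after the first start. Of its 4 coding transcripts, 3 start within 500 bp of that point, so the window is not shown to be distal. Its strongest (chr9:32541270-32541471) had 9.18, 8.6, 9.56 and 10.7 CPM in R26WT and 8.63, 8.53, 7.68 and 7.56 CPM in R26TIR1(F74G) libraries on day 3. Day 7 values were 13.5, 9.54 and 13.9 CPM in R26WT and 7.75, 9.48 and 10.3 CPM in R26TIR1(F74G) libraries. The groups overlapped by 1 library of each genotype on both days. The log2 fold change over both days was −0.31 (SE 0.11, unadjusted p = 0.00504, adjusted p = 0.55). Of 77 Fli1 windows tested on day 7, 7 had an unadjusted p under 0.05 (9.09%, against 5.95% of all windows), 2 higher and 5 lower, and of 78 on day 3 none had (7.55% of all windows).

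Elf1 and Gabpa, with most of the counts assigned to them near the first start site, were close between genotypes. The Elf1 start window (chr14:79481011-79481212) ranged from 17.5 to 22.1 CPM in R26WT and 16.1 to 20.9 in R26TIR1(F74G) libraries on day 3 and from 17.2 to 21.6 and 18.5 to 23.0 CPM on day 7. These ranges overlapped on both days, and the log2 fold change over both days was −0.06 (SE 0.09, 95% interval −0.24 to 0.12, adjusted p = 0.947). At the second RefSeq start of Elf1, 34500 bp on, the window had 15.2 CPM and 0.19 (SE 0.10, adjusted p = 0.752). The Gabpa start window (chr16:84834862-84835063) had 64.9, 64.8, 72.1 and 72.6 CPM in R26WT and 82.2, 61.6, 62.9 and 58.7 CPM in R26TIR1(F74G) libraries on day 3. On day 7 it had 67.4, 72.7 and 52.5 CPM in R26WT and 61.0, 62.1 and 63.8 CPM in R26TIR1(F74G) libraries. The highest value came from the least deeply sequenced library, and the lowest from the next. Over both days the log2 fold change was −0.06 (SE 0.08, 95% interval −0.22 to 0.10, adjusted p = 0.947), and without these 2 libraries it was −0.17 (unadjusted p = 0.0181, adjusted p = 0.454).

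Of all member windows, 0 passed an adjusted p of 0.05 in any of the 5 comparisons. On day 7, 0 of 370 did, where the share over all windows was 0.00463%. An unadjusted p under 0.05 was reached by 36 of 370 member windows (9.73%, in 32 regions, 15 higher and 21 lower in R26TIR1(F74G)), against 5.95% of all windows. On day 3, 0 of 370 passed (all windows 0.0%), and 23 had an unadjusted p under 0.05 (6.22%, 6 higher and 17 lower), against 7.55% of all. Over both days, 0 of 371 passed (all windows 0.0112%), with 22 at an unadjusted p under 0.05 (5.93%, 7 higher and 15 lower), against 6.73%. With DESeq2 the counts past the threshold were 0, 0 and 1.

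The other comparisons, of days and of the difference between days, gave no member window past the threshold. Between day 7 and day 3 over both genotypes 0 of 371 passed (all windows 0.00332%), with 23 (6.2%) at an unadjusted p under 0.05 against 5.47% of all. For the difference between days in the effect of genotype 0 passed (all windows 0.0%), with 20 (5.39%) against 6.32%. Of these 20, 17 had a positive difference, that is, a more negative genotype effect on day 3. The comparisons share libraries, so their values are not independent of each other.

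The median log2 fold change of member windows was 0.01 on day 7 and −0.06 on day 3, where 151 were above and 219 below 0 (over all windows −0.01 and 0.01). By gene the day 3 median was lowest for Runx3 with −0.18, followed by Elf1 with −0.14 over 3 windows and Runx1 with −0.11, and highest for Gabpa with 0.14. On day 3, 7 of 58 Runx3 windows (12.1%) and 4 of 70 Runx1 windows (5.71%) had an unadjusted p under 0.05, against 7.55% of all windows, so that the Runx1 share was below that of all windows. These 7 and 4 windows were lower in R26TIR1(F74G). The 7 Runx3 windows were the one at the first start site, 3 within 500 bp of the second start site, 2 at 40172 and 40644 bp upstream and 1 at 58690 bp downstream of the first start site. On day 7 the Runx3 median was −0.02. An unadjusted p under 0.05 was then reached by 9 of 59 Runx3 windows (15.3%, 2 higher and 7 lower), against 5.95% of all windows. By distance the day 3 median was −0.13 within 1 kb, −0.06 at 1 to 20 kb and −0.04 at 20 to 100 kb. No gene was tested against the others as a set.

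**Figure D4:**
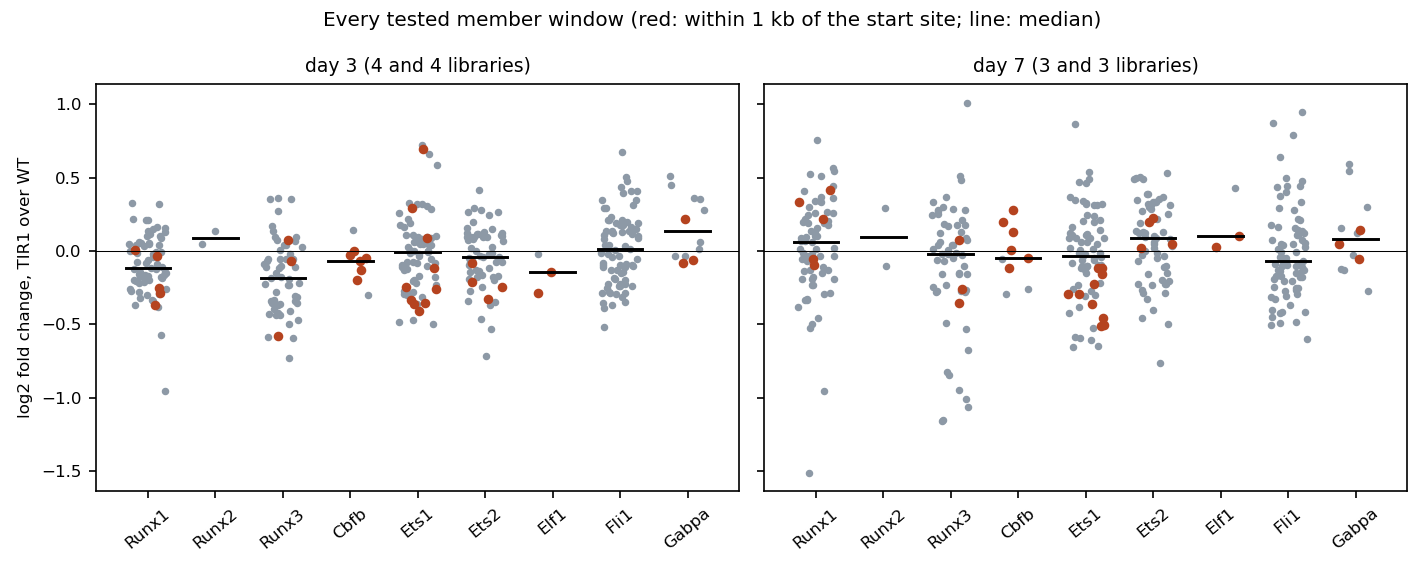
Log2 fold change (R26TIR1(F74G) over R26WT) of each tested member window by gene on day 3 and on day 7, with windows within 1 kb of the start site in red and a line at the median of each gene. On day 3 the Runx3 line lies at −0.18 and the Runx1 line at −0.11, and on day 7 they lie at −0.02 and 0.06.

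Sums over each gene varied less. Runx3 had 205, 172, 182 and 182 CPM in R26WT and 155, 162, 157 and 170 CPM in R26TIR1(F74G) libraries on day 3, and 171, 179 and 186 against 184, 174 and 170 CPM on day 7. The groups were apart on day 3 and overlapped on day 7. With the same test on gene sums the log2 fold change was −0.20 on day 3 (SE 0.06, unadjusted p = 0.00221, adjusted p = 0.124), −0.02 on day 7 (SE 0.06, adjusted p = 0.955) and −0.12 over both days (SE 0.04, adjusted p = 0.236). The difference between days was 0.18 (SE 0.08, adjusted p = 0.472), and with windows within 20 kb alone it was −0.01, a sum that leaves out the windows at the second start site.

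Ets2 had 256, 258 and 257 CPM in R26WT and 273, 277 and 286 CPM in R26TIR1(F74G) libraries on day 7. These did not overlap, at a log2 fold change of 0.12 (SE 0.05, unadjusted p = 0.0328, adjusted p = 0.63), whereas on day 3 it was −0.06 (SE 0.06, adjusted p = 0.612), with overlap. The sums of the other 7 genes had log2 fold changes over both days between −0.04 (Runx1) and 0.12 (Runx2), with unadjusted p of 0.31 or more. Ets1 was at 0.00 with a 95% interval of −0.07 to 0.07. Of the 9 gene sums, 0 passed an adjusted p of 0.05 in any comparison, and the shares over all genes were 0.0% on day 7, 0.12% on day 3, 0.0883% over both days, 0.0% between days and 0.0% for the difference between days. An unadjusted p under 0.05 was reached by 1 of 9 on day 7 (all genes 7.74%), 1 on day 3 (16.9%), 1 over both days (14.2%), 0 between days (5.7%) and 2 for the difference between days (10.2%).

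**Figure D5:**
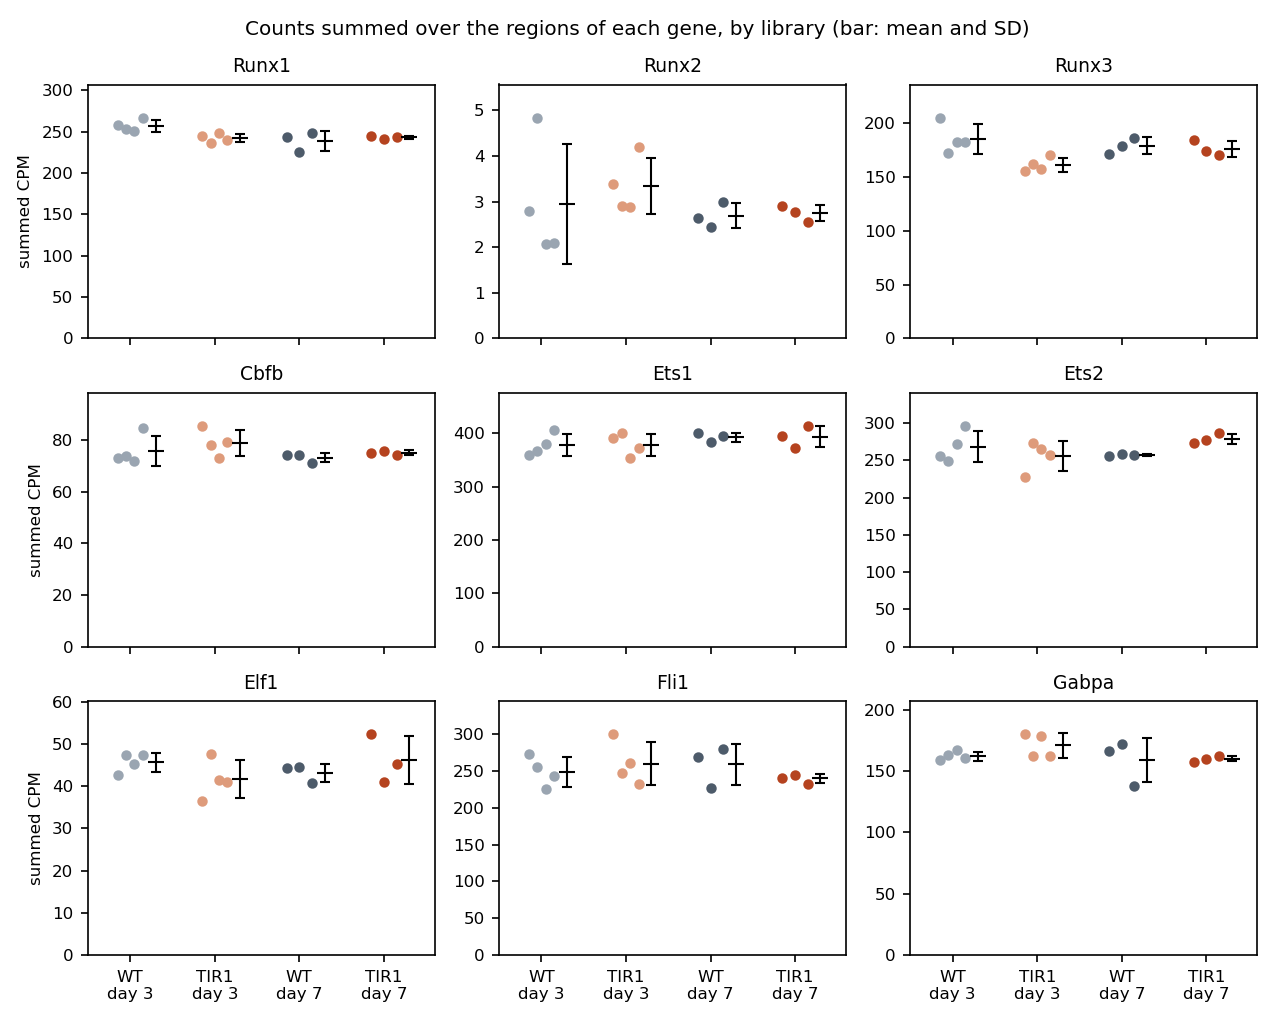
Summed CPM per library of each of the 9 genes over 1 window for each joined region within 100 kb, by genotype and day, with the mean and SD beside the points and axes from 0. The Runx3 groups are apart on day 3 (172 to 205 against 155 to 170 CPM), and the Ets2 groups on day 7 (256 to 258 against 273 to 286 CPM).

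The start windows of these genes varied together in part. Over the 14 libraries the Pearson correlation of log2 CPM was 0.74 between Runx1 and Runx3, 0.74 between Ets2 and Elf1, 0.72 between Cbfb and Gabpa and −0.01 between Runx1 and Cbfb. Of 9650 other genes, the most like Runx1 was Hdac6 (0.93), the most like Runx3 was AI467606 (0.90), the most like Cbfb was Diaph1 (0.94), the most like Ets2 was Nat8f1 (0.96), the most like Elf1 was Erh (0.92) and the most like Gabpa was Mfsd8 (0.93). These are descriptions over 14 libraries that include both genotypes and share differences in depth, and each is the highest of 9650 values.

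Related genes gave no call either. Of 23 other Ets family genes, 0 sums passed an adjusted p of 0.05 in any comparison, and on day 3 Elf3 and Etv1 were higher at an unadjusted p under 0.05 (9.09% of 22 tested, against 16.9% of all gene sums), and the smallest adjusted p was 0.0777 for Etv1, with a median log2 fold change of −0.01. Of 15 tested Runx cofactors, 0 passed, and over both days 6 of the 15 (against 14.2% of all gene sums) were lower at an unadjusted p under 0.05 (Tle3, Cbfa2t2, Sin3a, Hdac1, Kmt2a and Prmt1, corepressors and chromatin enzymes that bind Runx factors), with a median of −0.10 and a smallest adjusted p of 0.215. Of 12 genes that Runx or Ets factors are known to control in T cells, 0 passed, and over both days 2 were higher and 5 lower at an unadjusted p under 0.05 (58.3%, against 14.2% of all gene sums), with a median of −0.07. The smallest adjusted p there was 0.139, for Il2, which codes for a cytokine that Foxp3 represses in Treg cells and had a log2 fold change of 0.26. Foxp3 had the lowest value of the list, −0.22. Over all genes the median was 0.00, and all 3 lists were chosen with earlier results of these data known.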

How the data were processed

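ATAC-seq of Treg cells from 14 mice was analysed. The authors aligned reads with bowtie2 to mm10, called peaks with MACS2, merged reproducible peaks, and counted reads around each summit (featureCounts). Raw counts per window were deposited, in 240778 windows of 201 bp with a mean count of 10.1 or more. Read duplicates and the transposase offset were handled upstream, if at all, and so are part of the counts, and reads without molecular identifiers are not independent molecules.

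Columns were matched to samples by the mouse named in both, with 0 left over. Windows were assigned to the nearest RefSeq start site (GRCm38, the build of the windows) of 21183 protein-coding genes with a known strand. The strand came from the RefSeq promoters by gene identifier, or from GENCODE by symbol for genes absent there. The members and lists were chosen with earlier results of these data known. Counts were tested with edgeR 4.0.16 (quasi-likelihood, TMM, R 4.3.3) on features with a mean count of at least 10, for genotype on each day, for genotype in all 14 libraries adjusted for day, for day adjusted for genotype, and for the difference in genotype effect between days, and p-values were adjusted by Benjamini-Hochberg over all features at a threshold of 0.05. SEs were derived from each fold change and its F statistic. For each gene, counts were also summed over the strongest window of each joined region. No labels tie replicates to more than a number, so p-values measure the spread between these samples.

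Windows named are taken from those assigned to each gene. They are the strongest within 1 kb of the start site, the strongest beyond it and the one of smallest p over both days. Windows at second start sites, inside genes but outside the rule, or of smallest p in another comparison were added after their values were seen. Whether genotypes overlapped was noted for named windows and gene sums only. The share of all windows without overlap was not counted, so a lack of overlap is a description and not a test. The alternatives were DESeq2 1.42.0, other scalings and count minimums, a threshold of 0.1, windows within 20 kb, name prefix or replicate number as a term, and each library left out. The test was first tested on simulated counts with 200 changed windows. It found 154 of them on day 7, 168 on day 3, 185 over both days and 128 for the difference between days. Of the 50 changed 1.5-fold it found 11, 18, 35 and 4, so a count of 0 does not exclude changes of that size. False calls were 15 of 169, 8 of 176, 15 of 200 and 10 of 138. Replicates differed by more than counting error (chi-square per degree of freedom 1.62 to 2.46 for 18 pairs).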

Additional observations from a re-analysis of the deposited data

Results flagged for a closer look

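Among 82 groups of 4 libraries, for 32 windows and 9 gene sums on day 3, 5 had 1 library far from the others by Dixon's criterion, which chance alone meets in about 1 of 20 groups. All were R26WT libraries. At the window at the second Runx3 start site, replicate 1 had 8.31 CPM against 5.62 to 5.81 in the others, and without it the difference between days in the genotype effect was 0.75 (unadjusted p = 0.00491). At the Runx2 window 4180 bp upstream, replicate 2 had 2.45 CPM against 0.866 to 1.0. At Cbfb, replicate 4 had a gene sum of 84.5 CPM against 71.8 to 73.8, and 2.12 CPM against 1.37 to 1.47 in the window 12688 bp upstream. In the Cbfb window at 47003 bp, which lies outside the rule, replicate 3 had 0.751 CPM against 1.3 to 1.36.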

How the results depend on the processing

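Of 78 counts of calls under alternatives other than leaving out 1 library, 73 were within 1.5 times the main count, which was 0. The other 5 were all the member windows past the threshold over both days, 1 with DESeq2, 1 with total counts, 1 with a count minimum of 50, 1 at an adjusted p of 0.1 and 1 without the 2 libraries of lowest total, which was chosen after the data were seen. In each it was the Runx3 window at the first start site. Leaving out 1 library at a time gave 0 to 1 such windows, the 1 without day 3 R26TIR1(F74G) replicate 1 or without day 7 R26WT replicate 3. Of 323 log2 fold changes under the same alternatives, 311 kept direction and side of the threshold, 4 passed it and 8 changed sign. The Cbfb start window over both days was 0.01 with total counts and 0.01 with the minimum of 50, and the Ets2 start window 0.00 and 0.01. The Ets2 sum was −0.06 and the Runx3 difference between days −0.01 with windows within 20 kb, and without the 2 libraries of lowest total the Ets1 sum was 0.00 and the Gabpa sum −0.01. Over single libraries left out, the values over both days ran from −0.08 to 0.04 for the Cbfb start window, from −0.11 to 0.03 for the Ets2 start window, and for gene sums from −0.01 to 0.02 (Ets1), 0.00 to 0.05 (Ets2), −0.08 to 0.00 (Elf1) and −0.05 to 0.01 (Fli1). The causes were not tested. Libraries of the same number did not deviate together over windows (correlations of −0.0787 to 0.0652). Noise in single windows lowers such correlations, so they do not settle whether the numbers pair libraries. With the replicate block 0 member windows and 0 member genes passed in the 4 comparisons it was used for. Over both days the block was the replicate number, which joined different mice of day 3 and day 7. For the difference between days in the genotype effect it was the number within each day. Day 7 against day 3 was not tested with it. With this block the Runx3 start window had −0.48 over both days (adjusted p = 0.159). With the prefix of the mouse name as a term the same window had −0.47 (adjusted p = 0.21). Over all windows, 27 passed over both days, against 155 with DESeq2, 83 with the minimum of 50, 113 without the 2 libraries and 15 with the prefix, and 11 passed on day 7, against 0 with DESeq2 (where 6367 had an unadjusted p under 0.05), 4 with no filter, 34 with the minimum of 50 and 52 with the block. On day 3 it was 0 against 4 with the block. Of gene sums, 14 passed over both days against 217 with DESeq2 and 5 with the block, and 19 on day 3 against 116, 112 with the block and 3 within 20 kb. Depth limits the weak windows. Of the 371 member windows, 167 had under 2 CPM.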
